A study of Arabidopsis thaliana with 12 samples.

Results

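CONSTANS (CO), 5 CONSTANS-like genes and 4 CYCLING DOF FACTOR (CDF) genes were followed in Arabidopsis thaliana seedlings of the wild type Col-0 and of the mutant xrn3-8. The set was chosen by name, with earlier results of the same wild type and mutant libraries known, as CO (AT5G15840), COL1 (AT5G15850), COL2 (AT3G02380), COL3 (AT2G24790), COL4 (AT5G24930), COL5 (AT5G57660), CDF1 (AT5G62430), CDF2 (AT5G39660), CDF3 (AT3G47500) and CDF5 (AT1G69570). It holds 10 of the 37184 annotated genes counted in each library. Because the RNA-seq contrast was in view when the genes were picked, their RNA-seq levels and window levels are given here as a description. How many of them lay past the threshold of the fit over all genes is counted beside the same share of all genes, and nothing is supported with it. Small RNA was sequenced from other plants and was tested.

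CO and its relatives encode proteins with B-box zinc fingers at one end and a CCT domain at the other. In leaves under long days, CO builds up late in the light period and switches on FLOWERING LOCUS T (FT), whose protein moves through the phloem to the shoot tip and starts flowering. CDF proteins are Dof-type zinc finger repressors that sit on the promoters of CO and FT in the morning. They are removed in the afternoon by the blue-light F-box protein FKF1 acting with GIGANTEA (GI), and their genes are under the control of the circadian clock. CO protein is in turn broken down in darkness by the COP1 and SPA ubiquitin ligase.

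RNA-seq came from 21-day seedlings on soil, with 3 libraries of Col-0 and 3 of xrn3-8. Small RNA came from 14-day seedlings on MS plates, also with 3 libraries per genotype. Replicates are biological according to the series' design text, and the series title places XRN3, a nuclear exoribonuclease, in transcription termination. The mutant is represented by 1 allele. The hour of harvest and the day length, on which transcripts of this pathway depend, are not stated in the sources used here.

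The RNA-seq libraries held 61604670 to 79845518 counts on annotated genes, 50.1% to 54.6% of them on chloroplast genes, and the small RNA libraries held 5873199 to 7122245. XRN3 itself was at 48.8 ± 0.209 counts per 1e+06 counts on genes (CPM, SD, n = 3) in the wild type and 20.5 ± 1.33 in the mutant, with no overlap (edgeR adjusted p = 2.79e-06). In small RNA the XRN3 gene was far higher in xrn3-8, with a log2 fold change of 10.29 (adjusted p = 0.00034). CPM here are scaled by TMM factors and are not corrected for gene length, so levels are compared between genotypes and not between genes. Of the markers of the cell types a seedling holds, 2 of 3 leaf mesophyll genes were lower in the mutant by edgeR, beside 17.3% of all tested genes. The 3 mesophyll genes summed to 9917 to 11300 CPM in the wild type and 7424 to 9980 CPM in the mutant. None of 3 phloem companion cell genes passed the test, with summed levels of 233.7 to 272.0 CPM and 251.5 to 296.8 CPM. The root list, of which 1 of 4 genes could be tested and did not pass, summed to 84.3 to 134.8 CPM and 60.9 to 111.6 CPM, and its root hair regulator RHD6 was at 0 in every library. Of 5 flower genes, 3 could be tested, PI rose from 30 to 432 counts (adjusted p = 9.89e-05) and AP3 and SEP3 did not pass, while the floral meristem gene LFY had 7 counts per genotype. The flower list summed to 0.699 to 1.11 CPM in the wild type and 1.24 to 2.96 CPM in the mutant. PI alone averaged 1.94 CPM in the mutant. The counts of AP3, SEP3 and AG went the other way. AP3 had 43 in Col-0 and 14 in xrn3-8, SEP3 had 48 and 23, and AG, not tested, had 37 and 9. The part of these lists in the results was not tested. In whole seedlings, fewer cells of a type and less RNA per cell cannot be told apart.

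Most of the CONSTANS-like and CDF transcripts were less abundant in xrn3-8. COL2 was 9.06-fold lower, CDF1 3.71-fold lower and COL1 2.57-fold lower, and all 4 CDF members had lower levels in the mutant. COL4 was 1.58-fold higher, COL3 had similar means in both genotypes, and CO itself had few counts. All 10 genes passed the filter on low counts. By edgeR's quasi-likelihood fit over all genes, with an adjusted threshold of 0.05, 7 of the 10 were on the lower side (17.3% of all tested genes) and 1 on the higher side (16.0% of all tested genes, 33.3% in either direction). Over all genes 3296 were higher and 3582 lower, or 5458 and 2215 when libraries were scaled by total counts. The groups did not overlap for 9 of the 10, against 48.1% of all tested genes. The median log2 fold change of the 10 was -0.94, and that of all tested genes was 0.01. Since the choice of genes used this contrast, nothing is read from those counts.

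**Figure D1:**
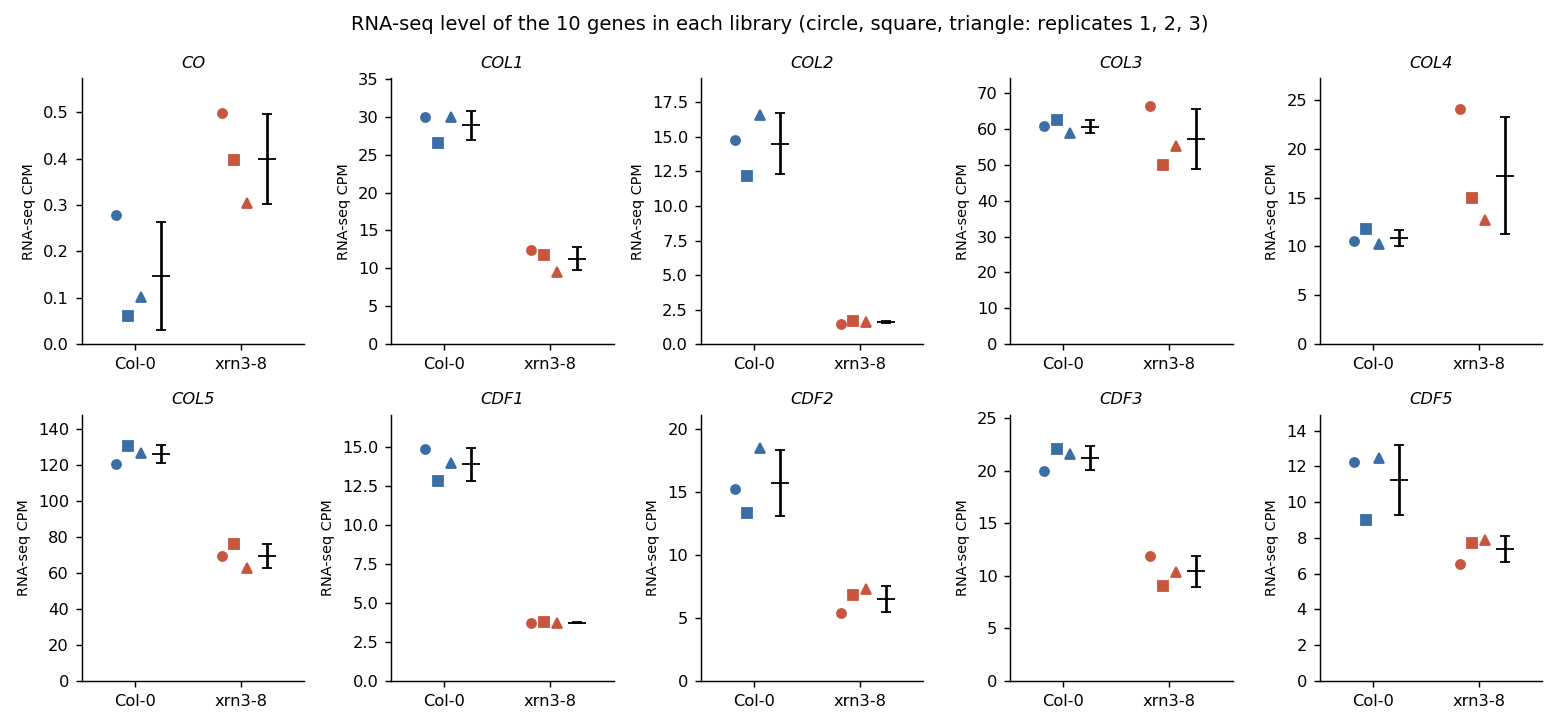
RNA-seq level of each of the 10 genes in CPM (vertical axis, from 0, with its own scale per gene) in the 3 Col-0 libraries (blue) and the 3 xrn3-8 libraries (red), with the mean and SD beside each group. COL2 and CDF1 lie in narrow bands near the bottom of their axes in xrn3-8, COL4 is spread by replicate 1 of xrn3-8, and only the COL3 groups overlap.

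CO, the activator of FT at the centre of the photoperiod pathway, was near the limit of what these libraries could count. It had 18, 4 and 6 counts in the Col-0 libraries and 32, 32 and 24 in the xrn3-8 libraries. Every xrn3-8 library was above every Col-0 library, but replicate 1 of Col-0 lay closer to the lowest mutant library than to the other two wild type libraries. The level was 0.147 ± 0.117 CPM in the wild type and 0.400 ± 0.0965 CPM in the mutant (SD, n = 3), a log2 fold change of 1.42 with an SE of 0.56. CO was counted on neither side. It reached the count filter in 1 Col-0 library and in 3 xrn3-8 libraries, so it was kept through the group in which it was higher. The log2 fold change was 2.28 without replicate 1 of Col-0, and 1.05 to 1.59 when any of the other libraries was left out. Of these fits, only that without replicate 1 of Col-0 had CO past the threshold.

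COL1 and COL2 are the closest relatives of CO, and COL1 lies next to CO in the genome. COL1 stood at 30.01, 26.6 and 29.9 CPM in the Col-0 libraries and at 12.4, 11.8 and 9.54 CPM in the xrn3-8 libraries. The highest mutant library was therefore less than the lowest wild type library by a wide margin. This was a log2 fold change of -1.36 with an SE of 0.11.

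COL2 was the member with the most negative fold change. Its levels were 14.8, 12.2 and 16.6 CPM in the wild type, and 1.49, 1.67 and 1.62 CPM in the mutant. In counts these were 952, 806 and 982 in the wild type and 96, 135 and 128 in the mutant, so the mutant level was low but well counted. The mutant libraries lay within a narrow band, with an SD of 0.0931 CPM against 2.21 CPM in Col-0. The log2 fold change was -3.18 with an SE of 0.14, and over the 12 processing alternatives it ranged from -3.28 to -3.03.

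COL3, whose protein binds the light-signalling repressor COP1 and promotes de-etiolation, differed least between the genotypes. It was at 60.7, 62.4 and 58.7 CPM in the wild type and at 66.5, 50.0 and 55.3 CPM in the mutant. The mutant libraries spread on both sides of the wild type ones, and the groups overlapped. The means were 60.6 ± 1.81 CPM and 57.2 ± 8.42 CPM (SD, n = 3), and the log2 fold change was -0.08 with an SE of 0.10. Its sign turned positive, at 0.072, when libraries were scaled by total counts.

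COL4, described as a repressor of flowering, was the 1 member counted on the higher side. Its levels were 10.6, 11.8 and 10.3 CPM in the wild type, and 24.0, 14.9 and 12.7 CPM in the mutant. All 3 mutant libraries were above all wild type ones, but replicate 1 of xrn3-8 was far above the other two and the lowest mutant library was close to the highest wild type one. On the log2 scale the difference was 0.66 with an SE of 0.20. Without replicate 1 of xrn3-8 it was 0.35, the lowest value when each library was left out in turn. COL4 was not past the threshold without replicate 1 or 3 of Col-0.

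COL5, which brings forward flowering in short days when overexpressed, was lower in xrn3-8. It stood at 121, 130.4 and 126 CPM in the wild type and at 69.3, 76.3 and 62.9 CPM in the mutant, with a clear gap between the groups. This is -0.86 on the log2 scale, with an SE of 0.09. Summed over CO and its 5 relatives, the level was 237.0 to 243.4 CPM in the wild type and 142.4 to 174.2 CPM in the mutant, a sum in which COL5 and COL3 have most of the counts.

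The 4 CDF members act redundantly as repressors of CO and FT, and their levels lay on the lower side together. CDF1, the best known target of FKF1, was at 14.9, 12.8 and 13.9 CPM in the wild type and at 3.70, 3.77 and 3.73 CPM in the mutant. As with COL2, the 3 mutant libraries were nearly equal. The SD was 0.0326 CPM at a mean of 3.73 CPM, against 1.05 CPM at a mean of 13.9 CPM in Col-0. A difference in spread was not tested. The log2 fold change of CDF1 was -1.89 with an SE of 0.10.

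CDF2 showed more spread within each genotype. It was at 15.2, 13.4 and 18.6 CPM in the wild type and at 5.40, 6.84 and 7.34 CPM in the mutant, with no overlap. CDF2 was thus 2.40-fold lower, or -1.26 on the log2 scale with an SE of 0.15.

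CDF3, also studied for its part in tolerance to drought and cold, was at 20.0, 22.1 and 21.6 CPM in the wild type and at 11.9, 9.02 and 10.4 CPM in the mutant. The groups were well apart. CDF3 had a log2 fold change of -1.03 with an SE of 0.11.

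CDF5 had the smallest difference of the 4 CDF genes. Its levels were 12.3, 9.01 and 12.5 CPM in the wild type, and 6.56, 7.73 and 7.91 CPM in the mutant. Replicate 2 of Col-0 came close to the mutant libraries without overlapping them. Between the means lay -0.60 on the log2 scale, with an SE of 0.14. Summed over the 4 CDF genes, the level was 57.2 to 66.6 CPM in the wild type and 27.4 to 29.3 CPM in the mutant.

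The genes most like COL2 and CO over the 6 RNA-seq libraries were found by the Euclidean distance between centred log2 CPM profiles. For COL2 the nearest were BBX31 at a distance of 0.595, AT1G62935 at 0.638 and AT2G18720 at 0.678. BBX31, a small B-box protein gene, went from 57, 42 and 47 counts in Col-0 to 4, 9 and 7 in xrn3-8. AT1G62935 went from 10, 12 and 10 counts to 0 in each mutant library, and AT2G18720 from 25, 16 and 22 to 2, 2 and 1. Their log2 fold changes were -6.55 and -3.79, beside -3.18 for COL2, and all 3 genes had far fewer counts than COL2. For CO the nearest were the transporter gene ABCG4 at 0.489, AT1G69710 at 0.496 and AT5G65170 at 0.506. ABCG4 had 27, 8 and 14 counts in the wild type and 52, 72 and 46 in the mutant, so replicate 1 was the highest Col-0 library for ABCG4 as it was for CO.

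FT and TSF had few counts in both genotypes. FT, the mobile flowering signal that CO switches on, had 33, 34 and 44 counts in the wild type and 14, 45 and 19 in the mutant. Scaled for depth, replicate 2 of xrn3-8 was at 0.557 CPM, within the wild type range of 0.513 to 0.743 CPM, and the other two mutant libraries were below it, at 0.218 and 0.241 CPM. The log2 fold change of FT was -0.78 with an SE of 0.44 and did not pass (edgeR adjusted p = 0.197). Without replicate 2 of xrn3-8 the value was -1.34, with an adjusted p of 0.043. TSF, the closest relative of FT, had 12 counts in all Col-0 libraries together and 2 in all xrn3-8 libraries, too few to test.

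Around CO and the CDF genes, a list of 40 photoperiod genes was examined, of which 39 could be tested. By edgeR, 7 rose, beside 16.0% of all tested genes, and 10 fell, beside 17.3%. The other 22 did not pass, and the median log2 fold change of the list was -0.05. When libraries were scaled by total counts, 10 rose and 6 fell. The F-box gene FKF1, whose product removes CDF proteins, had the largest rise. It went from 2.30, 2.30 and 1.54 CPM in Col-0 to 23.8, 20.8 and 20.7 CPM in xrn3-8, a rise of 3.40 on the log2 scale (SE 0.15, adjusted p = 3.98e-07). Its partner GI rose by 0.89 on the log2 scale, from 44.1 ± 4.65 CPM to 81.7 ± 2.84 CPM (SD, n = 3, adjusted p = 4.78e-05). The genotypes did not overlap for FKF1 or for GI.

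The clock genes of the list did not move in one direction. The morning MYB genes CCA1 and LHY fell by 2.36 and 2.33 on the log2 scale, with adjusted p-values of 6.94e-07 and 1.28e-06. CCA1 was at 59.6 ± 7.98 CPM in the wild type and 11.6 ± 1.03 CPM in the mutant (SD, n = 3). The pseudo-response regulator gene PRR9, a morning gene, fell by 2.22 (adjusted p = 3.25e-06). The evening gene TOC1 rose by 1.42 (adjusted p = 1.1e-06) and PRR5 rose by 0.60 (adjusted p = 0.00315). PRR7, of the same family as PRR9 and PRR5, did not pass, at -0.05 (edgeR adjusted p = 0.707). TOC1 was at 29.1 ± 1.03 CPM in the wild type and 77.8 ± 3.23 CPM in the mutant.

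Among the genes that act on CO protein, 3 of the 4 SPA genes, whose products are partners of COP1, fell. SPA1 fell by 1.08, SPA3 fell by 1.53 and SPA4 fell by 1.26 on the log2 scale (adjusted p = 9.56e-06, 3.02e-06 and 7.1e-05). The blue-light receptor gene CRY2, whose product protects CO, rose by 0.46 (adjusted p = 0.00189). COP1 and CRY1, at -0.35 and -0.36, and the FT repressor genes RAP2.7 and RAV2, at -0.37 and -0.39, passed with TMM scaling and did not pass when libraries were scaled by total counts. TCP4, an activator of CO, rose by 1.04 (adjusted p = 0.00341), with 8.97 CPM in replicate 1 of xrn3-8 against 5.67 and 4.87 CPM in the other two. FBH1, FBH2, FBH3 and FBH4 of the same list did not pass, at -0.02, 0.04, -0.40 and -0.01 on the log2 scale. FD, the bZIP partner of FT at the shoot tip, rose by 1.27 (adjusted p = 0.00343).

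**Figure D2:**
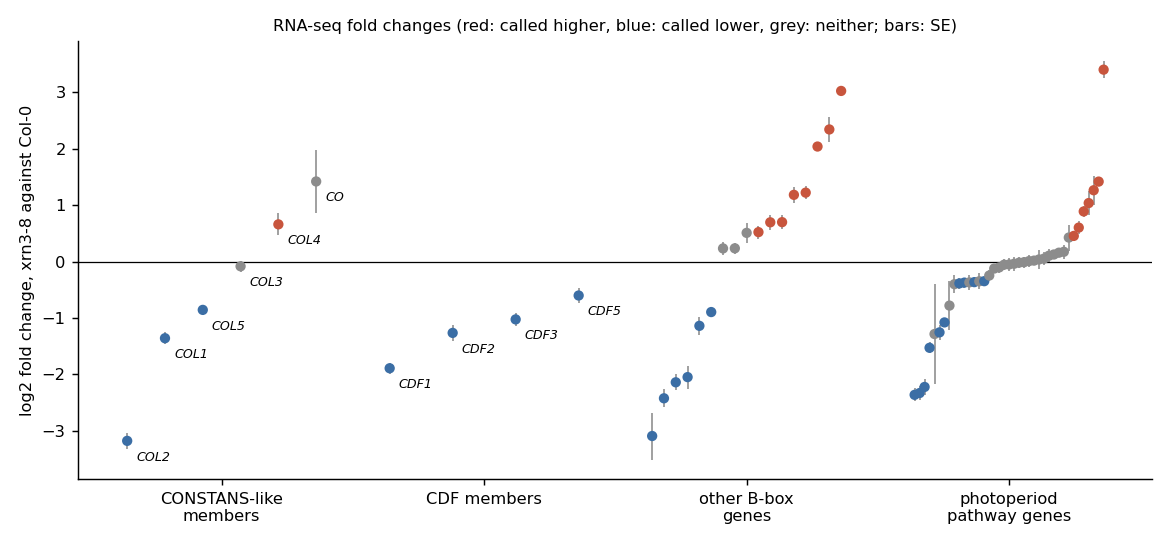
Log2 fold change of xrn3-8 against Col-0 in RNA-seq (vertical axis) with its SE (bars), one point per tested gene, for the 6 CONSTANS-like members, the 4 CDF members, 17 other B-box genes and 39 photoperiod genes. Red points are past the threshold and higher, blue points past it and lower, and grey points not past it. The 4 CDF members all lie below 0, and the other B-box genes lie on both sides, from -3.09 to 3.03.

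The B-box genes outside the set went both ways. Of 20 listed, 17 could be tested by edgeR. Of these, 8 rose, beside 16.0% of all tested genes, and 6 fell, beside 17.3%. The other 3 did not pass, and the median of the 17 was 0.51. COL9 rose from 6.08 ± 0.560 CPM to 49.6 ± 0.346 CPM (SD, n = 3), a log2 fold change of 3.03 (adjusted p = 4.62e-08). BZS1, also called BBX20, rose by 2.34 (adjusted p = 2.54e-05), BBX8 by 2.04 (adjusted p = 3.98e-07) and BBX14 by 1.22 (adjusted p = 2.43e-05). In the other direction BBX31 fell by 3.09 (adjusted p = 0.000297), COL7 fell by 2.42 (adjusted p = 4.3e-06), STH, also called BBX25, fell by 2.14 (adjusted p = 3.92e-06) and BBX18 fell by 2.05 (adjusted p = 4.28e-05). BBX31 had fewer than 10 counts in every mutant library, so it was kept by the filter through the group in which it was higher. The CONSTANS-like members had a median of -0.47 over 6 genes.

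Of 3 further CDF-type Dof genes outside the set, AT2G34140 (CDF4) and AT1G29160 (COG1) could be tested. Both rose, beside 16.0% of all tested genes, so the lower levels of the CDF members did not extend to these relatives. AT1G29160 had 24, 43 and 66 counts in the wild type and 119, 123 and 156 in the mutant, a log2 fold change of 1.33 (edgeR adjusted p = 0.0131). AT2G34140 had 23, 25 and 6 counts in the wild type and 51, 51 and 64 in the mutant, a log2 fold change of 1.40 (adjusted p = 0.0336). It no longer passed in 4 of the 6 fits that left out 1 library, those without replicate 1 or 3 of either genotype.

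The genes on either side of the members, or overlapping them, went both ways. There were 23 such genes, 22 of them in the deposited tables and 13 with counts enough to test. By edgeR 3 rose, beside 16.0% of all tested genes, and 2 fell, beside 17.3%. A further 8 did not pass, and 6 had no count in any library. All 3 that rose overlap a member: AT1G69572 overlaps CDF5, AT5G15843 overlaps CO, and AT5G15845 overlaps both CO and COL1. AT1G69572 and AT5G15845 are annotated as long non-coding RNA genes and AT5G15843 as protein coding. The sources used here do not say whether reads were counted by strand, so reads of overlapping genes cannot be fully told apart.

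AT1G69572 rose where CDF5 was lower. It had 73, 67 and 63 counts in the wild type and 254, 395 and 353 in the mutant, a rise of 2.05 on the log2 scale with an SE of 0.17 (edgeR adjusted p = 1.35e-05). For every 100 counts on CDF5 there were 9.25, 11.2 and 8.53 on AT1G69572 in the Col-0 libraries and 60.2, 63.3 and 56.7 in the xrn3-8 libraries. The ratio thus separated the genotypes completely. The flanking window of AT1G69572 had 1, 7 and 3 counts in the wild type and 18, 31 and 49 in the mutant, at 2.86 on the log2 scale (SE 0.58, adjusted p = 0.00044). Its counts were under the filter's minimum of 10 in every wild type library and above it in every mutant library. This window was thus kept through the group in which it was higher, and its call is no support for a difference. With DESeq2 the window was at 2.03 and missed the threshold (adjusted p = 0.0556).

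At the CO and COL1 pair, AT5G15845 had 51, 22 and 36 counts in the wild type and 96, 129 and 163 in the mutant, a rise of 1.58 (SE 0.32, edgeR adjusted p = 0.0035). AT5G15843 had 16, 9 and 14 counts in the wild type and 37, 58 and 72 in the mutant, a rise of 1.83 (SE 0.39, adjusted p = 0.00493). The genotypes did not overlap for either gene. COL1, in the same stretch, was lower in the mutant. For every 100 counts on COL1 there were 1.25 to 2.64 on AT5G15845 in the wild type and 12 to 21.7 in the mutant. CO, which both genes overlap, was at 1.42 on few counts and was counted on neither side. For every 100 counts on CO there were 88.9 to 233 on AT5G15843 in the wild type and 116 to 300 in the mutant. The genotypes overlapped in that ratio.

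**Figure D3:**
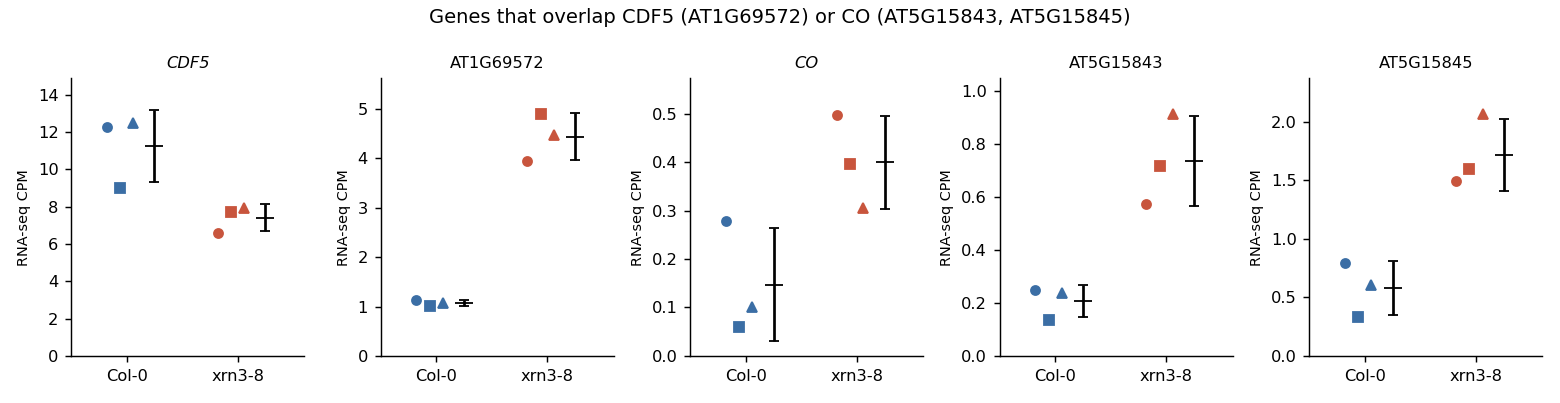
RNA-seq level in CPM (vertical axes, from 0, own scale per panel) of CDF5 with AT1G69572, which overlaps it, and of CO with AT5G15843 and AT5G15845, in 3 Col-0 (blue) and 3 xrn3-8 (red) libraries, with mean and SD. CDF5 is lower in xrn3-8 while AT1G69572 goes from 1.07 to 4.44 CPM on average, and the groups are apart in every panel.

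COL2 overlaps AT3G02370 and AT3G02390, whose log2 fold changes of 0.56 and 0.59 did not pass (edgeR adjusted p = 0.0526 and 0.197). AT3G02370 passed in 4 of the alternatives, among them total count scaling at 0.72. The flanking window of AT3G02370 had 29, 20 and 19 counts in the wild type and 56, 48 and 55 in the mutant, at 1.002 on the log2 scale (SE 0.32, edgeR adjusted p = 0.0145). It missed the threshold with DESeq2 at 0.15 (adjusted p = 0.875), with windows scaled on themselves at 0.24 (adjusted p = 0.604), and at 0.85 to 0.93 without replicate 2 or 3 of Col-0 or replicate 1 of xrn3-8. Beside the CDF genes, AT5G39670, next to CDF2, fell by 1.91 (adjusted p = 5.85e-06), from 106 ± 16.6 CPM in Col-0 to 28.2 ± 4.19 CPM in xrn3-8. CDF2 and its neighbour were thus both lower in xrn3-8. AT3G47490, next to CDF3, fell by 0.38 (adjusted p = 0.0128) with TMM scaling and did not pass with total counts.

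The authors also counted reads in windows, named 500 plus the gene identifier, that flank genes. On which side of the gene they lie is not stated in the sources used here. Of 2925 windows tested in the whole table, 49.3% were called higher and 1.61% called lower for the mutant, and the median of all their log2 fold changes was 1.06. With windows scaled on themselves 686 were called higher and 313 lower, and with DESeq2 918 and 245, against 1441 and 47, over different numbers of tested windows. Of the members' windows 3 of 10 could be tested, those of COL3, COL4 and COL5, and 2 of them were on the higher side. The windows of CO and CDF2 had no count in any library, those of CDF1, CDF3 and CDF5 had at most 11 counts in a library, and that of COL2 at most 2. The CDF1 window had 1, 0 and 0 counts in the wild type and 7, 0 and 2 in the mutant, and the CDF5 window had 1, 1 and 1 against 6, 2 and 1, so replicate 1 of xrn3-8 held most of either.

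The COL3 window had 4, 8 and 6 counts in the wild type and 52, 31 and 75 in the mutant, while the COL3 gene had similar means in both genotypes. Every mutant library was far above every wild type library. On the log2 scale the window differed by 2.89 with an SE of 0.46, and by 2.04 to 3.20 over the alternatives. None of the wild type libraries reached the count filter and 3 mutant ones did, so this window was kept through the group in which it was higher. For every 1000 counts on the gene, the window held 1.43 in the wild type and 11.3 in the mutant.

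The COL5 window was higher in the mutant while the gene was lower. It had 33, 41 and 31 counts in the wild type and 120, 140 and 140 in the mutant, a log2 fold change of 1.69 with an SE of 0.25. It was 0.94 with windows scaled on themselves and 0.85 with DESeq2. For every 1000 counts on the gene there were 4.06 in the wild type and 23.6 in the mutant. The 2 groups were again separate, and the mutant libraries were close to each other.

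The COL4 window overlapped between the genotypes once scaled for depth. It had 27, 28 and 18 counts in the wild type and 40, 35 and 30 in the mutant, or 0.304 to 0.423 CPM against 0.381 to 0.622 CPM, with a log2 fold change of 0.31 and an SE of 0.35 that turned negative when windows were scaled on themselves. Per 1000 gene counts it held 32.7 in the wild type and 26.4 in the mutant. COL1 had too few window counts for the fit, with 16, 9 and 9 in the wild type and 5, 17 and 11 in the mutant, a scaled ratio of 0.823 (95% counting interval 0.494 to 1.37). CDF3 had 4, 2 and 0 against 11, 9 and 4, a ratio of 3.39 with an interval of 1.35 to 10.1. These intervals cover counting error only.

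**Figure D4:**
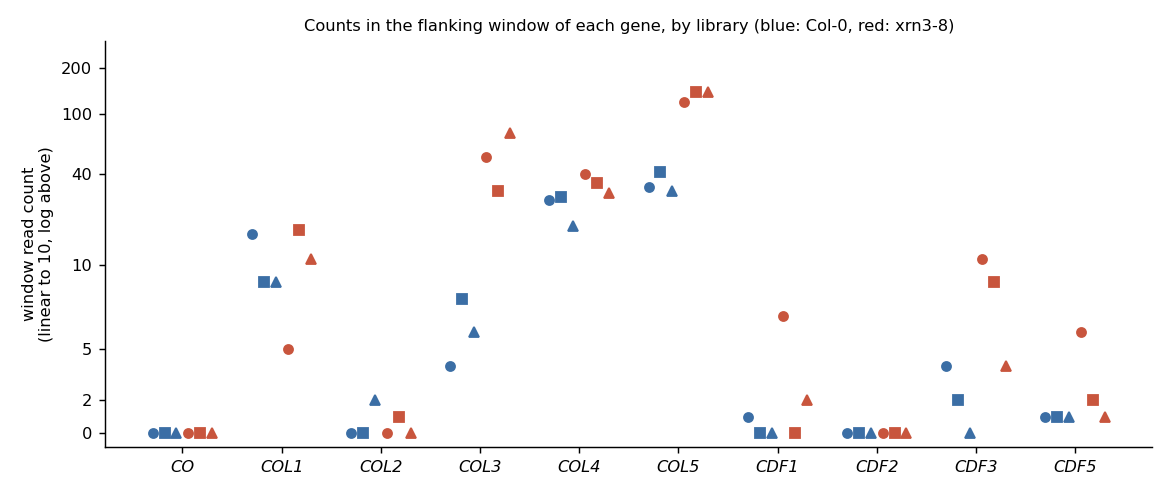
Read counts in the flanking window of each of the 10 genes (vertical axis, linear to 10 and log above) in 3 Col-0 (blue) and 3 xrn3-8 (red) libraries. The COL3 and COL5 windows are higher in all 3 mutant libraries, those of COL1 overlap, those of COL4 run from 18 to 28 counts in Col-0 and from 30 to 40 in xrn3-8 before scaling for depth, and those of CO and CDF2 are at 0.

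Where the authors counted the assembled loci beside the genes, some members lost counts to them. COL3 had 8.82% fewer counts in the wild type and 9.05% fewer in the mutant than in the table counted with windows. COL5 had 7.56% and 8.20% fewer, COL1 7.15% and 7.51%, COL4 7.27% and 5.80%, and CDF3 2.40% and 3.71%. Whether the shares differ between the genotypes was not tested. CO, COL2, CDF1, CDF2 and CDF5 differed by under 1%.

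Small RNA over the members was sparse in the 14-day plants. Of the 10 genes, 6 passed the count filter and 1, CDF1, was called by edgeR, as higher in xrn3-8. Of all 9101 tested genes 7.01% were called, 6.02% as higher and 0.989% as lower. CDF1 had 5, 5 and 2 counts in the wild type and 11, 18 and 17 in the mutant, with no overlap. It reached the count filter in 0 wild type libraries and 3 mutant ones, so it was tested through the group in which it was higher, and its call is no support for a difference among the members. The level was 0.601 ± 0.242 CPM and 2.30 ± 0.388 CPM (SD, n = 3), a log2 fold change of 1.89 with an SE of 0.40 (adjusted p = 0.031). The direction was the same in all 11 alternatives tried, but the call was made in 4 of them, with adjusted p-values from 0.0121 to 0.148. It was lost with DESeq2, with a replicate block, and without any 1 of the libraries other than replicate 1 of xrn3-8.

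COL2 and CDF3 also had more small RNA in every mutant library than in any wild type library, without passing the threshold. COL2 had 21, 17 and 12 counts in the wild type and 36, 27 and 40 in the mutant, a log2 fold change of 1.04 with an SE of 0.28 (edgeR adjusted p = 0.0731). CDF3 had 28, 24 and 22 counts in the wild type and 31, 48 and 47 in the mutant, a log2 fold change of 0.75 with an SE of 0.20 (adjusted p = 0.0804). Neither passed in any of the 11 alternatives. CDF1, COL2 and CDF3 were among the 7 of 10 members with lower RNA-seq levels in the 21-day mutant plants. COL1, without any small RNA count, and COL5, without separation in small RNA, were also among the 7. A relation between small RNA and RNA-seq levels was not tested.

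The other members showed no separation in small RNA. COL4 had 23, 22 and 24 counts in the wild type and 25, 14 and 8 in the mutant, at -0.52 on the log2 scale (SE 0.46, edgeR adjusted p = 0.716). COL5 had 16, 24 and 12 against 45, 15 and 10, and its value of 0.48 (SE 0.65, adjusted p = 0.832) rested on replicate 1 of xrn3-8, without which it was -0.57. COL3 had 4, 14 and 11 against 10, 10 and 3, at -0.34 on the log2 scale (SE 0.65, adjusted p = 0.893). COL1 had no small RNA count in any library. For a single library, 0 counts bound the expected count at about 3 with 95% confidence. CO had 2 counts in the wild type and 8 in the mutant, CDF2 had 3 and 6, and CDF5 had 7 and 14, all below what could be tested.

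**Figure D5:**
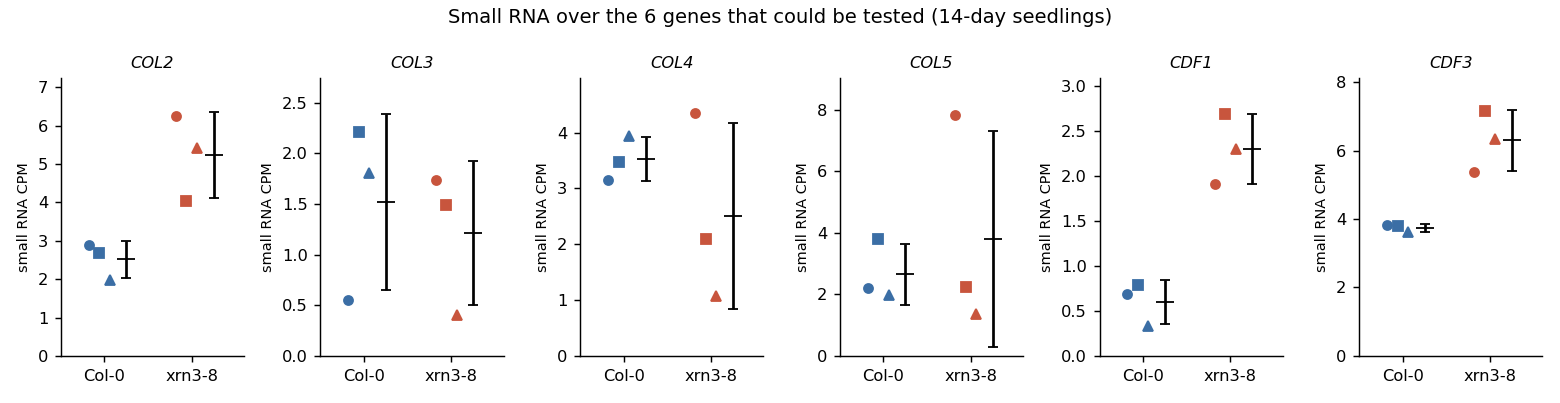
Small RNA level in CPM (vertical axes, from 0, own scale per gene) over the 6 genes that could be tested, in 3 Col-0 (blue) and 3 xrn3-8 (red) libraries of 14-day seedlings, with mean and SD. COL2, CDF1 and CDF3 have no overlap between the groups, and replicate 1 of xrn3-8 stands apart for COL5.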

How the data were processed

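The values are read counts for each gene or window, deposited by the authors as whole numbers without scaling. Per the submitters' processing notes, RNA-seq reads passed through HISAT2 and small RNA reads through Bowtie, with HTSeq, bedtools and DESeq2 listed for both assays and TAIR10 as the build; versions and settings are not given. RNA-seq libraries were stranded and depleted of ribosomal RNA, per the labels' protocols. Tallies of reads assigned to no gene, 22.6% to 26.1% in RNA-seq and 74.6% to 77.1% in small RNA, were left out.

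Counts were tested with edgeR 4.0.16 in R 4.3.3 by the two-sided quasi-likelihood test with TMM factors, filterByExpr at a minimum count of 10, and Benjamini-Hochberg adjustment over all features tested, at 0.05. Genes, windows (scaled by the gene table) and small RNA were fitted separately. DESeq2 1.42.0, total counts, TMM on nuclear genes, no filter, a replicate block, windows scaled on themselves and leaving out each library were alternatives. An alternative using gene counts from the table counted with windows was chosen after seeing the data. On simulated data, 79% of 2-fold and 92% of 4-fold changes were recovered among 20764 genes, 19% and 71% among 3211 windows, and 39% and 86% among 9110 small RNA genes.

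The members and lists were chosen with earlier results of these data known. Named are all members, up to 12 pathway and 8 B-box genes past the threshold with the largest changes, FT and TSF, genes flanking or overlapping members, and 3 genes listed beside the CDF members. CRY1, CRY2, COP1, RAP2.7, RAV2, PRR7, FBH1, FBH2, FBH3 and FBH4 were added after their values were seen. Likeness used log2 CPM with a prior count of 2. Names and gene order came from a TAIR10.1 reference table, which matched 36899 of 37184 identifiers. It gives no strand, and no coordinates or sequences are printed. Replicates were distinct libraries, since counts within a group differed beyond sampling noise.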

Additional observations from a re-analysis of the deposited data

How the results depend on the processing

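The number of lower members was 7 under each RNA-seq alternative, which supports nothing since the members were chosen on this contrast. The number of higher members was 1, became 2 with total counts and 2 with a replicate block, in both cases through CO at 1.56. It ranged from 0 to 1 when each library was left out. COL4 was not past the threshold without replicate 1 or 3 of Col-0. Without replicate 1 CO was counted instead, and without replicate 3 no member was. The replicate numbers were not taken as pairs, since in neither assay did every pair reach a correlation of 0.1: the deviations of same-numbered libraries correlated at 0.0576, 0.143 and 0.101 across genes in RNA-seq and at -0.454, 0.0298 and -0.159 in small RNA. In RNA-seq every library correlated best with its own number, a hint from the data and not the design. Pathway genes that fell numbered 10, or 6 with total counts, a scaling under which the median over all genes shifts by 0.153 (log2), and 10 to 12 when each library was left out; those that rose numbered 7 to 8 in these fits and 10 with total counts. Other B-box genes numbered 8 to 9 higher and 6 to 7 lower when each library was left out, and 11 and 6 with total counts. Each left-out fit had 2 member windows higher. Over all genes, total counts gave 5458 higher and 2215 lower genes against 3296 and 3582. Over all windows, DESeq2 gave 918 higher and 245 lower, scaling on themselves 686 and 313, and no filter 3520 higher. The count of members called in small RNA was 1, became 0 with DESeq2 and 0 with the replicate block, and ranged from 0 to 1 when each library was left out. All genes called in small RNA numbered 638, with 1398 without a filter, 195 with the block, and 325, 392 and 338 without Col-0 replicates 1, 2 and 3. Signs turned for COL3 in RNA-seq (0.072 with total counts; -0.20 to 0.072 over all alternatives, with 0.016 without xrn3-8 replicate 2), for COL3 in small RNA (-0.77 to 0.094 when each library was left out, positive without Col-0 replicate 2 or xrn3-8 replicate 3), for the COL4 window (-0.53 with DESeq2, -0.44 with windows scaled on themselves) and for COL5 in small RNA (-0.57 without xrn3-8 replicate 1, up to 0.87 without another library). AT3G47490 was also not past without Col-0 replicate 2. The cause of these shifts was not tested. Depth limits CO, FT, TSF, 7 of the 10 windows and all small RNA values of the members, where a 2-fold change was often below what the simulated data recovered.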
